A study of Mus musculus with 12 samples.

Results

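Interferon-stimulated genes and their regulators were followed as a set of 54 named mouse genes, 20 regulators of the interferon response and 34 effectors, across 12 one-colour Agilent arrays. A probe carried the name of 53 of them (Psme2 had none), and 44 were measured: in at least 1 group, each array marked their probe as well above background. These were 17 regulators and 27 effectors of 17660 genes measured in this sense. The measured genes were selected on these detection marks and the probe on its brightness, each gene being read from its brightest probe. Detection is therefore given below as a description only.

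The RNA came from mouse embryonic stem cells (mESC), with 4 Tbx3-high and 4 Tbx3-low samples by their labels, and from mouse induced pluripotent stem cells (iPSC, made from body cells by reprogramming) with 2 samples labelled Tbx3 wildtype and 2 labelled Tbx3 null. Tbx3 is a T-box factor that acts on genes of the pluripotent state. The labels name no strain, culture medium, clone or sorting marker and no allele beyond the word null, and do not say whether arrays of a group stand for separate cultures or clones. The p-values therefore measure only the spread between these samples. Tbx3-low and Tbx3-high arrays shared 1 slide, in separate columns of it, and the iPSC arrays another, again with the groups in separate columns, so slide position and group cannot be told apart. Embryonic and induced cells were not compared directly.

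Interferons are secreted antiviral signals. They bind paired receptor chains (Ifnar1 with Ifnar2 for type I, Ifngr1 with Ifngr2 for type II), whose associated kinases Jak1, Jak2 and Tyk2 activate transcription factors. A complex that holds Stat2 and Irf9 binds the interferon-stimulated response element of target genes, type II signalling acts through the gamma-activated sequence, and the targets block viral entry, translation or replication or feed back on the pathway. Pluripotent stem cells are known for a weak interferon response compared with differentiated cells.

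The response elements were looked for in the 250 bases before the start of each gene, in sequences from RefSeq (GRCm38.p6), as these are the letters through which the pathway is known to reach its targets. Of the 54 members, 44 matched by symbol, not the same 44 genes as those measured. The core of the interferon-stimulated response element (GAAA, any 2 bases, GAAA), on either strand, was in 12 of these 44 promoters (27.3%), those of 3 of 17 regulators and 9 of 27 effectors, and in 3.46% of all 27025 promoters of the table. The core TTCNNNGAA of the gamma-activated sequence, also searched on both strands, was in 10 of 44 (22.7%) and in 8.13% of all. The matches may overlap each other, are letters only and were not tested for binding. Shown here are the upstream bases of 4 members that differed between the mESC groups and of Ifit1, which carries matches but was dim on all arrays. Capitals mark the matched letters, and each is read 5′ to 3′ towards the start.
Isg15, chr4:156200819-156200938, minus strand: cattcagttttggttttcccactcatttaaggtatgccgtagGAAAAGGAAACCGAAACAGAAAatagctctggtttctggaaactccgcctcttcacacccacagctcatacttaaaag
Rsad2, chr12:26456453-26456572, minus strand: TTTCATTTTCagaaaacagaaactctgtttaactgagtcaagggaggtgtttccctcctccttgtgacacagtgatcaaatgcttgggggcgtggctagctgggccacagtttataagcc
Irf1, chr11:53769854-53770013, plus strand: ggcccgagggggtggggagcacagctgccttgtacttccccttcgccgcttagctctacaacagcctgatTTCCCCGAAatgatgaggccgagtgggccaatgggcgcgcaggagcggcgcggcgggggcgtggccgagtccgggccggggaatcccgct
Cxcl10, chr5:92348890-92349129, minus strand: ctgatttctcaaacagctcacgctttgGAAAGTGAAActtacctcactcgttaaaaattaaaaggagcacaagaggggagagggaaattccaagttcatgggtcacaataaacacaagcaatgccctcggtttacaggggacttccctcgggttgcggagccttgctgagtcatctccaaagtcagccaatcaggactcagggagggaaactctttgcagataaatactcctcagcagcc
Ifit1, chr19:34640769-34640888, plus strand: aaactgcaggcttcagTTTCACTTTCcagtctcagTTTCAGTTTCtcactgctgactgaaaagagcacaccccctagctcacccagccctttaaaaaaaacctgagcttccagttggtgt

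In Isg15 the match was 3 overlapping copies at positions -78 to -57 from the start. Rsad2, Cxcl10 and Ifit1 held the response element core on 1 strand or the other, and the match in Irf1, of the gamma-activated sequence, lay at positions -90 to -82. The windows of Oasl2 and Ubd, the members with the widest differences below, held neither core, which says only that these letters are not in these windows.

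Of the 53 members on the array, 37 were well above background on all 12 arrays. The regulators Irf2, Irf7 and Usp18 and the effectors Ifit1, Ifit2, Ifit3, Mx1, Mx2 and Ifi44 were measured in no group. The IFIT members of the set, whose family binds foreign RNA ends, were therefore not well above background throughout any group. The same held for both Mx GTPases, which trap viral nucleoproteins. Just outside the rule lay Mx2, well above background on 2 of 4 Tbx3-low, 1 of 4 Tbx3-high and 1 of 2 wild-type arrays, and Usp18, well above it on 1 Tbx3-low array alone. Just inside lay Rsad2, on all 4 Tbx3-low arrays and no other, and Ifih1, on both wild-type and 1 Tbx3-low array.

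**Figure D1:**
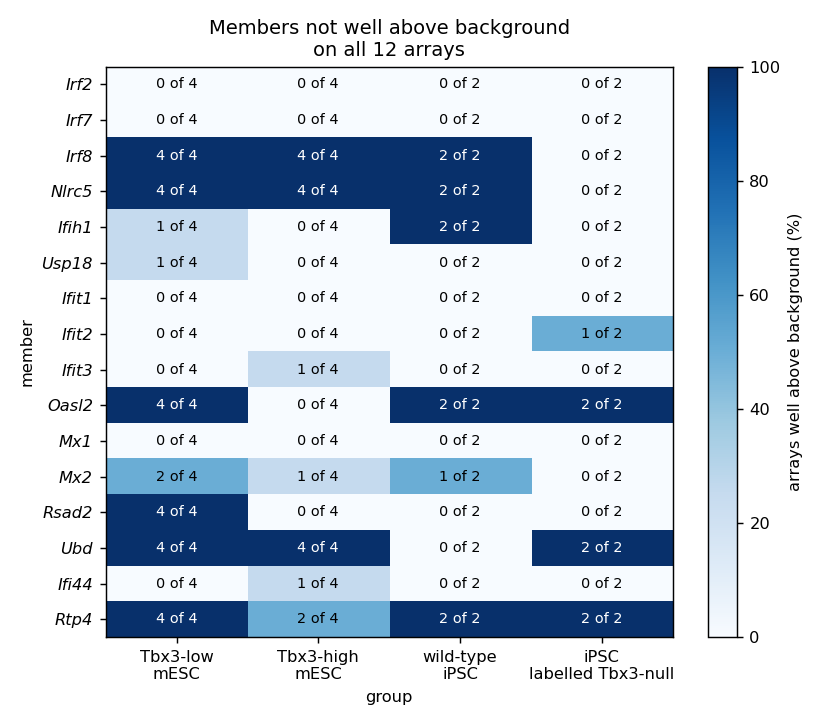
Number of arrays on which each member was well above background, by group, for the 16 members on the array that were not so on all 12 arrays; the shade gives the percent of the group's arrays. The probes used for Irf8, Nlrc5 and Ifih1 were dim on both arrays of iPSC labelled Tbx3-null, those for Oasl2 and Rsad2 on all 4 arrays of Tbx3-high mESC, and that for Ubd on both of wild-type iPSC.

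The depth of the arrays and the identity of the cells were checked before any comparison. The 75th percentile of the probe signals, the reference for all levels below, was 314 to 458 on the mESC and 699.8 to 1007 on the iPSC arrays, and no spot was saturated. Between 55.9% and 64.8% of spots were well above background on the mESC arrays, 68.6% and 68.0% on the wild-type and 63.0% and 62.4% on the null-labelled arrays. All 10 pluripotent cell markers were well above background in all groups; 4 were higher and 1 lower in Tbx3-high and 1 was higher in null-labelled cells. Pou5f1, Sox2 and Nanog passed the test in neither comparison. Of 13 macrophage and blood markers, Spi1, Lyz2 and Hbb-b1 were well above background on no array, and their summed level lay at 13.6 to 18.3 (Tbx3-low), 13.0 to 21.3 (Tbx3-high), 22.7 to 25.6 (wild type) and 20.0 to 20.7 (null label), in units of the 75th percentile. The summed fibroblast markers, 15 genes, lay at 6.92 to 8.03 in Tbx3-low and 5.35 to 30.1 in Tbx3-high, where Thy1 reached 4.73 on the log2 scale on 1 array, and at 5.29 to 5.63 and 5.28 to 5.97 in wild-type and null-labelled iPSC. Postn and Twist2 were at background throughout, and 3 of 9 tested fibroblast markers were higher in Tbx3-high (Pdgfrb by 1.83, Col1a1 by 1.54 and Pdgfra by 1.30 on the log2 scale) and 1, Tagln, was lower. In null-labelled iPSC 3 of 12 were lower and 3 higher, and the changes of the 12 ran from -2.32 to 2.58. The part of such cells in the results was not tested, and in bulk samples fewer cells of a type and less RNA per cell cannot be told apart.

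Tbx3 itself stood at 7.07 ± 0.04 (SD, n = 4) in Tbx3-high and 5.74 ± 0.02 in Tbx3-low, a log2 change of 1.33 ± 0.07 (SE) with a limma adjusted p of 1.77e-07. On the arrays labelled Tbx3-null it was 5.50 ± 0.02 (n = 2) against 5.17 ± 0.25 in wild type, 0.32 ± 0.10 higher with an adjusted p of 0.0296, a call lost without null-labelled replicate 1 (adjusted p = 0.112), without null-labelled replicate 2 (0.0783) and without wild-type replicate 1 (0.235). The probe thus gave no loss of Tbx3 RNA under this label, and neither labels nor files tell whether it lies in a deleted part. The cells are called null-labelled for that reason.

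The first comparison asks how the members differ between embryonic stem cells with high and with low Tbx3. In Tbx3-high cells most of the effectors that passed the test were lower, among them the chemokine Cxcl10, 5.54-fold, and the ADP-ribosyltransferases Parp14, 3.64-fold, and Parp9, 3.15-fold. The oligoadenylate synthetase-like gene Oasl2 was well above background in Tbx3-low only, and at least 28.0-fold lower in Tbx3-high. The regulators split: the transcription factor Irf1 was 3.38-fold and the ubiquitin ligase Trim21 2.71-fold lower, while Irf8, Irf5, Irf9, Irf3 and the receptor chain Ifnar2 were higher, by 1.997-fold at most. Xaf1, a proapoptotic gene, was the 1 effector that rose, 3.46-fold. All changes are log2 differences with the SE of a limma fit, and passing means an adjusted p under 0.05 over all genes tested.

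Of 43 tested members, 29 passed, 23 lower and 6 higher in Tbx3-high. Over all 15677 genes tested, 34.8% passed, 15.3% lower and 19.5% higher. Among the effectors 20 of 27 were lower and 1 higher, with a median change of -0.54. Among the regulators 3 of 16 were lower and 5 higher, with a median of 0.13, beside a median of 0.04 for all genes. At 2-fold or more, 11 members were lower and 1 higher, against 2.73% and 1.91% of all genes. The 4 values of a group lay wholly below those of the other for 22 members in Tbx3-high and wholly above for 6, where 15.8% and 19.9% of all genes did so. Oasl2, Rsad2 and Rtp4 had entered through the Tbx3-low group alone and so had to be lower. Among the 40 members well above background in both groups, 20 were lower and 6 higher, and at 2-fold or more 9 were lower and 1 higher. In a fit of the 14970 genes well above background in both groups, 2243 were lower and 2963 higher. Within the rows of the slide, with 2 arrays against 2, the counts were 20 lower and 7 higher in row 1 and 18 lower and 4 higher in row 2. In the same fits 1898 of 15677 genes were lower and 2264 higher in row 1. In row 2, 1743 were lower and 1817 higher. The shares of all genes given above do not hold for these fits of fewer arrays. The counts at 2-fold or more among the 40 members have no share of all genes beside them.

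**Figure D2:**
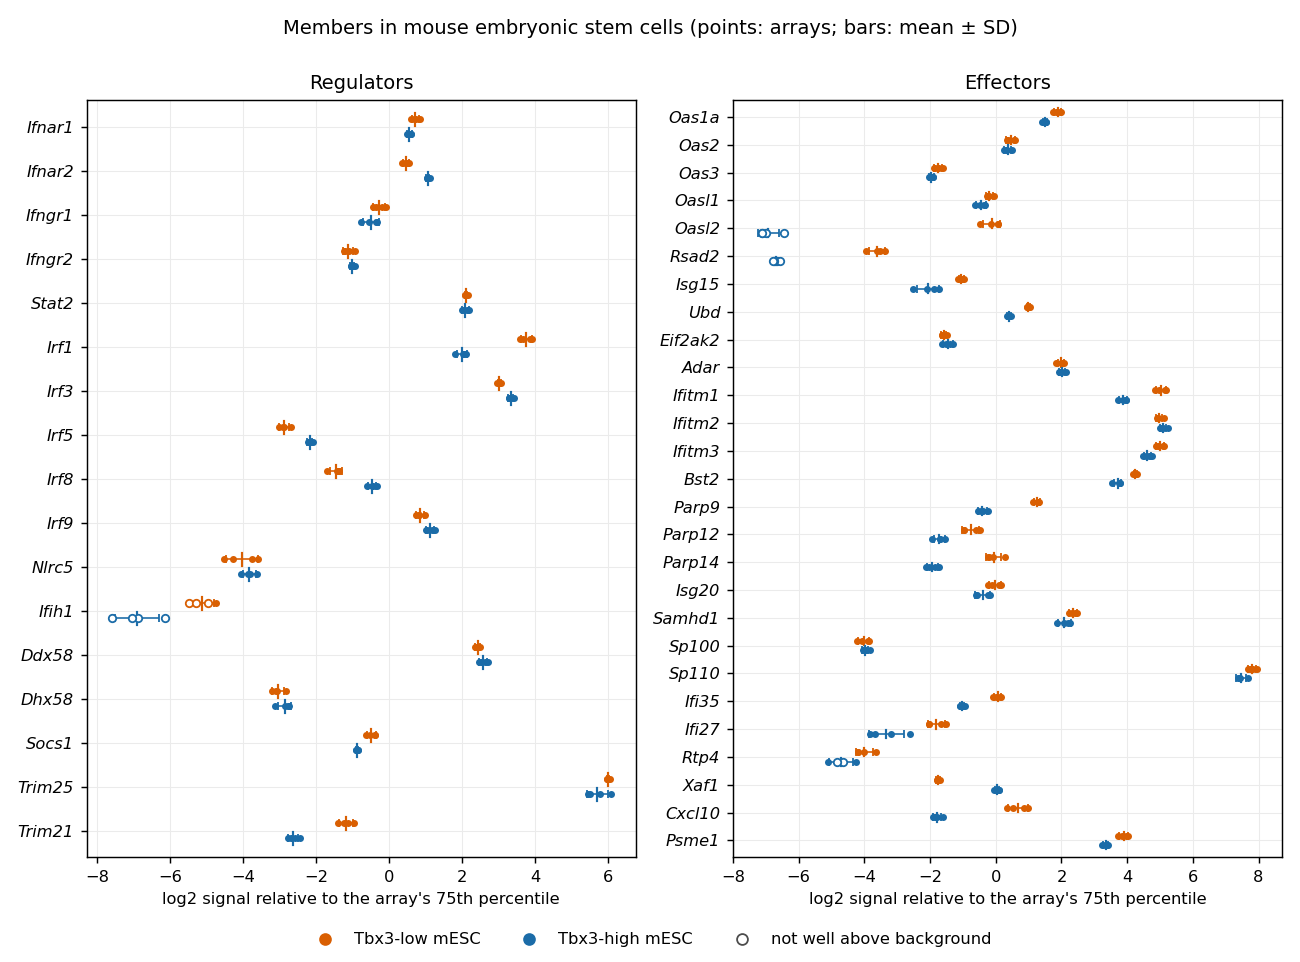
Level of each measured member on the 8 mESC arrays, regulators left and effectors right, as log2 signal relative to the 75th percentile of the array; points are arrays, bars mean ± SD of 4 arrays, and open points are not well above background. Oasl2 stands near 0 on the Tbx3-low arrays and below -6 on the Tbx3-high arrays, and Irf1, Parp9, Parp14, Trim21 and Cxcl10 separate without overlap.

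Of the receptor chains, 1 of 4 passed. Ifnar2, a signalling chain of the type I receptor (probe at chr16:91394044-91394103, mm9), read 0.44, 0.37, 0.54 and 0.49 on the Tbx3-low arrays and 1.03, 1.07, 1.12 and 1.05 on the Tbx3-high arrays. Every Tbx3-high value lay above every Tbx3-low value, a rise of 0.61 ± 0.07 (adjusted p = 3.35e-05). Its partner Ifnar1 differed by -0.16 ± 0.09 (adjusted p = 0.176). The mean over the probes of Ifnar1 gave -0.26 with an adjusted p of 0.0330. The type II chains Ifngr1 and Ifngr2 differed by -0.23 ± 0.11 and 0.11 ± 0.07, with adjusted p of 0.145 and 0.275.

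The transcription factors moved in both directions. Irf1, an early target of both interferon types that drives many of the effectors (probe at chr11:53590746-53590805), read 3.68, 3.60, 3.91 and 3.86 on the Tbx3-low arrays. On the Tbx3-high arrays it read 2.06, 1.82, 2.11 and 2.02. The groups lay more than 1 log2 unit apart with no overlap, a fall of 1.76 on the log2 scale with an SE of 0.09 and an adjusted p of 9.37e-08. Its promoter, printed above, holds the gamma-activated core.

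Irf8, Irf5, Irf3 and Irf9, of the same family, rose. Irf8, a factor known from blood cell development (probe at chr8:123280324-123280383), read -1.70, -1.36, -1.36 and -1.42 in Tbx3-low and -0.47, -0.59, -0.34 and -0.45 in Tbx3-high. It was higher on all Tbx3-high arrays, by 0.998 ± 0.11 (adjusted p = 3.13e-05). Irf5, which acts below Toll-like receptors, went from -2.87 ± 0.14 to -2.17 ± 0.06 (SD, n = 4), 0.69 ± 0.07 higher (adjusted p = 2.89e-05). Irf3, the latent factor that RNA sensors activate, was 0.31 ± 0.06 higher (adjusted p = 0.00297).

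Irf9, the DNA-binding part of the complex with Stat2, was 0.28 ± 0.08 higher with an adjusted p of 0.0236. That call was lost without Tbx3-high replicate 1 (adjusted p = 0.0674) or 2 (0.0566) and without Tbx3-low replicate 1 (0.0529), 2 (0.0674) or 3 (0.0507). Stat2 differed by -0.02 ± 0.06 (adjusted p = 0.850), the smallest difference among the regulators. Nlrc5, an activator of MHC class I genes, differed by 0.20 ± 0.18 (adjusted p = 0.417).

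The cytosolic RNA sensors did not pass. Ddx58, which encodes RIG-I, differed by 0.15 ± 0.09 (adjusted p = 0.209) and Dhx58, which encodes LGP2, by 0.19 ± 0.10 (adjusted p = 0.187). Ifih1, which encodes MDA5, was not tested, being well above background on only 1 of the 8 arrays.

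Socs1, a feedback inhibitor of the Jak kinases, read -0.64, -0.52, -0.39 and -0.39 in Tbx3-low and -0.91, -0.91, -0.86 and -0.85 in Tbx3-high. The groups did not overlap, and Socs1 fell by 0.39 on the log2 scale (SE 0.07, adjusted p = 0.000796). Trim21, a cytosolic antibody receptor and ubiquitin ligase of the interferon-regulatory factors (probe at chr7:109706478-109706537), read -1.24, -1.41, -0.97 and -1.11 in Tbx3-low. In Tbx3-high it read -2.69, -2.77, -2.45 and -2.59. All 4 Tbx3-high values were lower by over 1 log2 unit, a fall of 1.44 with an SE of 0.10 (adjusted p = 1.15e-06).

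Trim25, the ligase that activates RIG-I, gave opposite signs on its probes. The brighter probe differed by -0.30 ± 0.12 (adjusted p = 0.0743) and the other by 0.39 ± 0.07 (adjusted p = 0.00201 over all probes). The reason to look at their letters is that the brighter probe is a simple repeat over 30 bases, as is that of the nuclear body gene Sp110 over 36 bases, a class to which 132 probes (0.237%) belong. Shown are 30 bases of each, with the repeat in capitals.
Trim25, brighter probe: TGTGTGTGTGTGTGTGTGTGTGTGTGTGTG
Trim25, other probe: tctttatttgactgcttctgattctttttc
Sp110, brighter probe: GTGTGTGTGTGTGTGTGTGTGTGTGTGTGT
Sp110 was 0.32 ± 0.09 lower on that probe (adjusted p = 0.0135), and its other probes differed by -0.34 ± 0.16 and 0.13 ± 0.14, neither of which passed. Over the 12 arrays the repeat probe of Sp110 averaged 7.52 and its other probes -3.37 and -2.30. The repeat probe of Trim25 averaged 5.75 and its other probe 5.67. Whether the repeat probes also read other transcripts was not tested. Sp110 was named after its values were seen.

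In the OAS family, some members of which make the second messenger of RNase L on binding double-stranded RNA, 3 of 5 members were lower. Oasl2 (probe at chr5:115362168-115362227) read -0.49, -0.15, 0.06 and 0.07 on the Tbx3-low arrays and -6.45, -7.11, -7.01 and -7.11 on the Tbx3-high arrays. None of the latter was well above background, so the difference is a bound, at least 28.0-fold (adjusted p = 1.44e-09), in a direction that entry through Tbx3-low alone had set. A bound sets each dim array at its own signal or the lowest signal well above background on it, whichever is higher, and holds for the processed signal alone. With normexp correction, which adds an offset of 50 to each signal, the change of Oasl2 was -2.76. Oas1a fell by 0.39 (SE 0.07, adjusted p = 0.000892), and Oasl1 by 0.26 (SE 0.09, adjusted p = 0.0399). The call for Oasl1 was lost without Tbx3-high replicate 1 or 4 and without Tbx3-low replicate 1, 3 or 4, with adjusted p from 0.0561 to 0.108. Oas2 and Oas3 differed by -0.10 ± 0.08 and -0.19 ± 0.10.

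Rsad2, which encodes the antiviral enzyme viperin (probe at chr12:27127859-27127918), read -3.94, -3.53, -3.37 and -3.62 in Tbx3-low. In Tbx3-high it was dim on all arrays, at -6.67, -6.58, -6.75 and -6.79, and so at least 2.50-fold lower (adjusted p = 1.44e-06), again a direction set by its entry. With normexp correction its change was -0.44 (adjusted p = 0.00286). Isg15, a ubiquitin-like protein joined to many targets during the response (probe at chr4:155573649-155573708), read -0.98, -1.02, -1.15 and -1.03 in Tbx3-low and -1.74, -1.88, -2.52 and -2.08 in Tbx3-high. Its values were lower on all Tbx3-high arrays, a fall of 1.01 with an SE of 0.14 (adjusted p = 0.000181). Ubd, another ubiquitin-like protein, which marks proteins for the proteasome, fell by 0.58 (SE 0.06, adjusted p = 1.28e-05). The kinase Eif2ak2 (PKR), which stops translation, and the RNA-editing enzyme Adar differed by 0.12 ± 0.10 and 0.03 ± 0.07, and neither passed.

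The membrane proteins that block viral entry or release were lower with 1 exception. Ifitm1 (probe at chr7:148155659-148155718) read 4.86, 4.97, 5.14 and 5.19 in Tbx3-low and 3.95, 3.71, 3.96 and 3.86 in Tbx3-high, 1.17 lower (SE 0.09, adjusted p = 2.12e-06). Its other probe, shifted by 1 base, gave -1.19. Bst2, or tetherin, fell by 0.54 (SE 0.07, adjusted p = 0.000148), and Ifitm3 by 0.39 (SE 0.10, adjusted p = 0.00780). Ifitm2 differed by 0.12 ± 0.07 (adjusted p = 0.253). Ifitm1, Ifitm2 and Ifitm3 are close copies of each other, and whether the probe of 1 also reads another was not tested.

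All 3 PARP members, ADP-ribosyltransferases of the antiviral response, were lower. Parp14 (probe at chr16:35832992-35833051) read -0.09, -0.25, 0.28 and -0.20 on the Tbx3-low arrays and -1.86, -2.02, -1.71 and -2.12 on the Tbx3-high arrays, 1.86 lower (SE 0.14, adjusted p = 2.01e-06). Parp9, on the same chromosome at chr16:35972577-35972636, read 1.12, 1.27, 1.32 and 1.27 against -0.55, -0.44, -0.24 and -0.40, a fall of 1.65 (SE 0.09, adjusted p = 1.40e-07). Neither gene had overlapping groups. Parp12 fell by 0.96 (SE 0.13, adjusted p = 0.000178).

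Cxcl10, a chemokine that draws T cells (probe at chr5:92775781-92775840), read 0.52, 0.34, 0.995 and 0.87 in Tbx3-low. Its Tbx3-high values were -1.84, -1.61, -1.78 and -1.92, all below every Tbx3-low value, a fall of 2.47 with an SE of 0.13 (adjusted p = 1.63e-07). Psme1, a subunit of the proteasome activator, fell by 0.54 (SE 0.08, adjusted p = 0.000449). Ifi27, a small mitochondrial and nuclear membrane protein, read -2.02, -2.03, -1.50 and -1.67 against -3.19, -3.67, -3.83 and -2.62, 1.52 lower (SE 0.23, adjusted p = 0.000343). Within slide row 2 its adjusted p was 0.0558. Over the alternative fits described below, the change of Ifi27 ran from -1.76 to -0.80. Ifi35 fell by 1.09 (SE 0.07, adjusted p = 6.36e-07). Rtp4, a receptor transporter induced by interferon, fell by 0.71 (SE 0.17, adjusted p = 0.00835), with 2 of 4 Tbx3-high arrays not well above background. With normexp correction its value was -0.16 (adjusted p = 0.239), and within slide row 2 the adjusted p was 0.102.

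Xaf1 (probe at chr11:72122169-72122228) went against the other effectors. It read -1.80, -1.75, -1.79 and -1.69 on the Tbx3-low arrays and 0.08, 0.09, 0.04 and -0.07 on the Tbx3-high arrays. The spread within each group was under 0.2 and the rise 1.79 ± 0.11 (adjusted p = 4.11e-07). The remaining effectors were Isg20 and Samhd1, named after their values were seen, and Sp100. Isg20, an exonuclease, was 0.38 ± 0.12 lower (adjusted p = 0.0267), and Samhd1, a dNTPase, 0.26 ± 0.09 lower (adjusted p = 0.0484). Isg20 lost its call without Tbx3-high replicate 3 (adjusted p = 0.0724) or 4 (0.0747) or Tbx3-low replicate 1 (0.0756) or 2 (0.0703), and Samhd1 without any of 6 of the 8 arrays, with adjusted p from 0.0547 to 0.124. Sp100 differed by 0.05 ± 0.09.

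**Figure D3:**
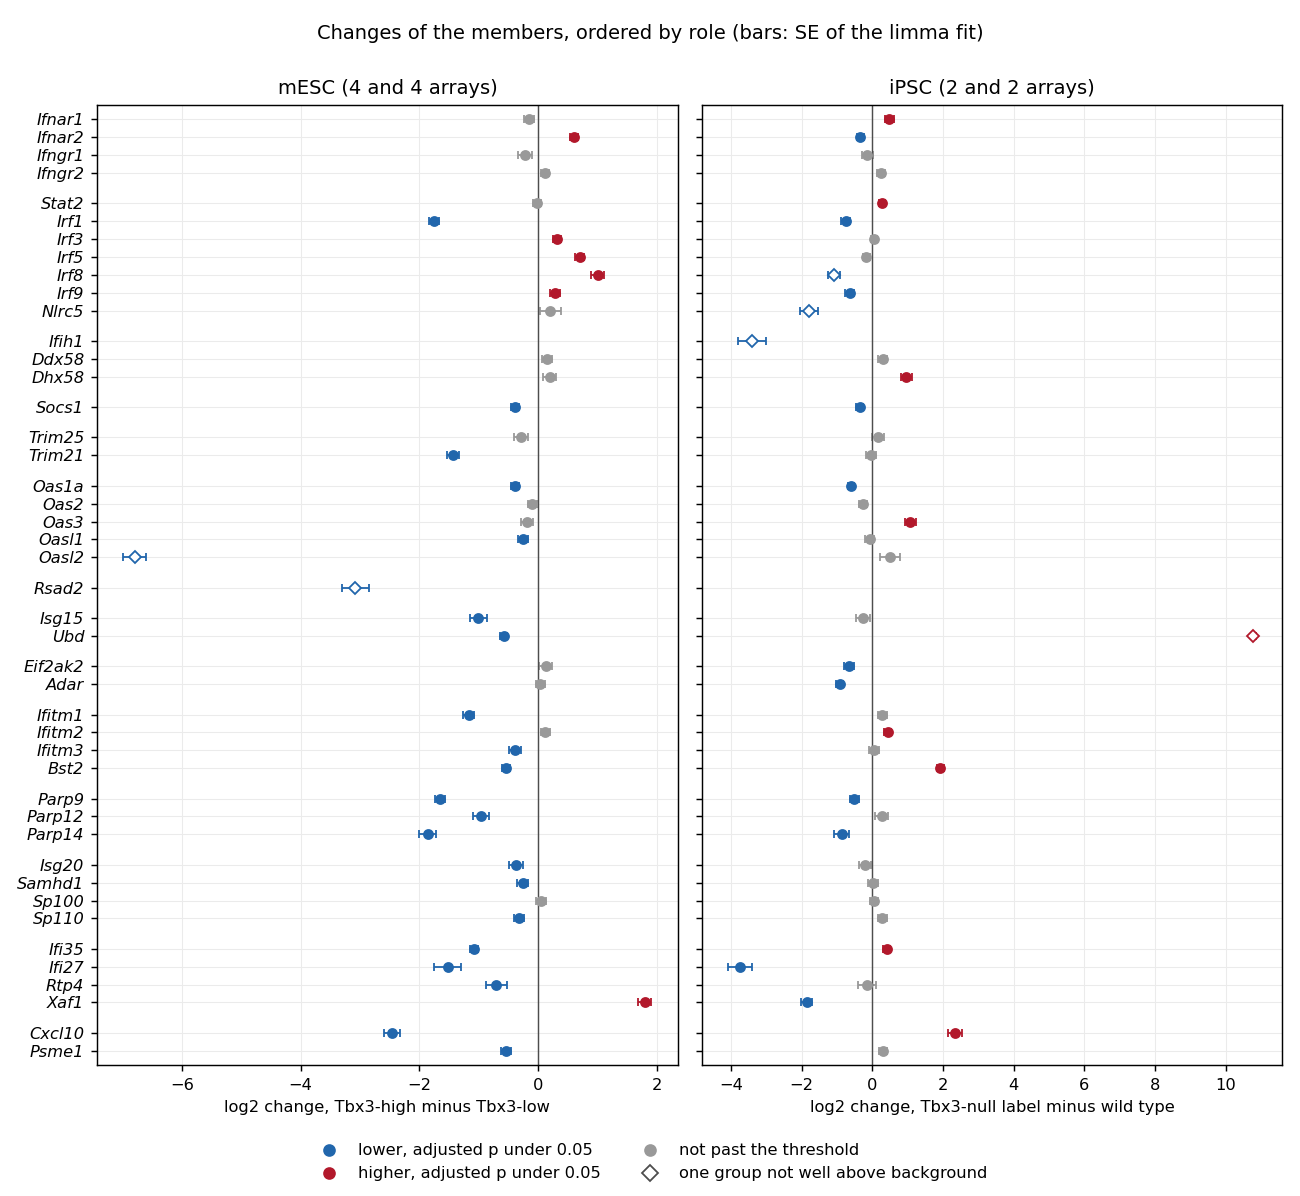
Log2 change of each tested member, ordered by role, in mESC (Tbx3-high minus Tbx3-low, 4 and 4 arrays) and in iPSC (Tbx3-null label minus wild type, 2 and 2 arrays); bars are the SE of the limma fit, colour gives the call and open diamonds mark members dim in 1 group. In mESC the effectors lie mostly left of 0 with Xaf1 at 1.79 to the right, and in iPSC they lie on both sides with Ubd farthest right.

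The second comparison asks how the members differ between null-labelled and wild-type iPSC. In the null-labelled cells Cxcl10 was 5.06-fold, Bst2 3.80-fold and Oas3 2.11-fold higher. Ubd was well above background in null-labelled cells only, and at least 391-fold higher there. Ifi27 was 13.3-fold and Xaf1 3.61-fold lower. The sizes for Cxcl10 and Ifi27 depended on the processing. Among the regulators the sensor Ifih1 was dim in null-labelled cells and at least 2.28-fold lower, while lower values of Irf8 and Nlrc5 depended on the background correction or the probe. Of 43 tested members, 23 passed, 14 lower and 9 higher, where over 17498 genes 38.3% passed, 16.6% lower and 21.8% higher.

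Regulators were lower in 7 of 17 cases and higher in 3, with a median change of -0.14, and effectors were lower in 7 of 26 and higher in 6, with a median of 0.04, beside 0.07 for all genes. At 2-fold or more, 5 members were lower and 4 higher, against 7.50% and 4.06% of all genes. Irf8, Nlrc5 and Ifih1 had entered through the wild-type group alone and Ubd through the null-labelled group alone, so these 4 had to differ in that direction. Among the 39 members well above background in both groups, 11 were lower and 8 higher, and at 2-fold or more 2 were lower and 3 higher. The shares of all genes given above are those of the wider filter. In a fit of the 16189 genes well above background in both groups, 2505 were lower and 3781 higher. The counts at 2-fold or more among the 39 members have no share of all genes beside them. Without null-labelled replicate 1, fewer members and also fewer of all genes were higher. With 2 arrays a group, the values of 19 members lay wholly lower and 17 wholly higher, and 30.8% and 40.6% of all genes did so. The tests drew their spread from all 12 arrays. In a fit of only the iPSC arrays, 12 members were lower and 6 higher. Of all genes, 2776 were lower and 2771 higher there. Ifnar1 (adjusted p = 0.0733), Ifnar2 (0.111), Stat2 (0.142), Socs1 (0.0643) and Ifi35 (0.0534) lost their calls in that fit, as did Tbx3 (0.167).

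**Figure D4:**
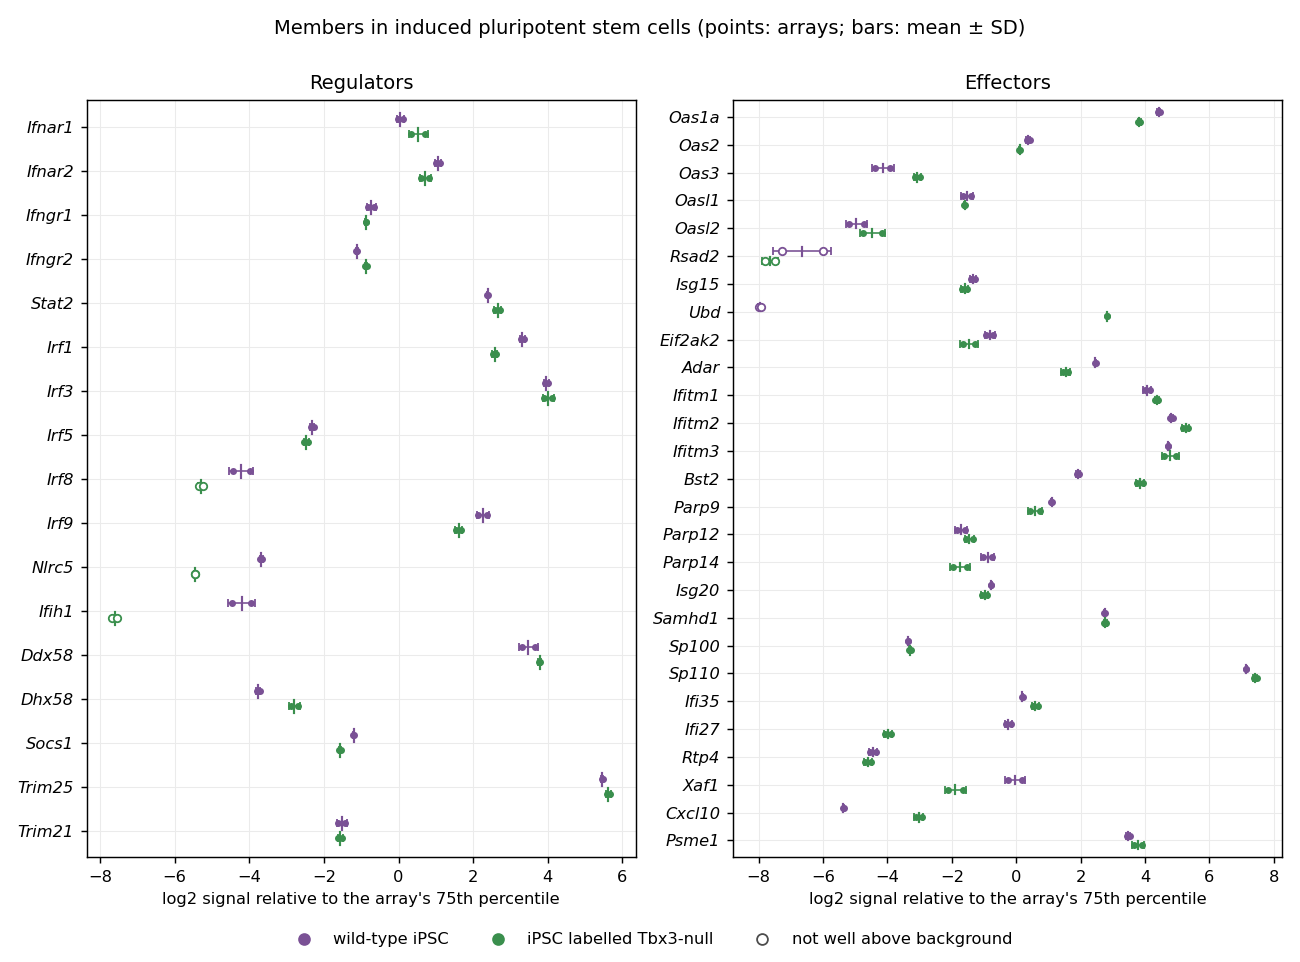
Level of each measured member on the 4 iPSC arrays, regulators left and effectors right, as log2 signal relative to the 75th percentile of the array; points are arrays, bars mean ± SD of 2 arrays, and open points are not well above background. Ubd stands at 2.82 on both null-labelled arrays and near -8 on the wild-type arrays, and Ifi27, Bst2, Xaf1 and Cxcl10 separate without overlap.

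Of the type I receptor chains, Ifnar1 was called higher and Ifnar2 lower in the null-labelled iPSC. Ifnar1 read -0.02 and 0.12 in wild type and 0.72 and 0.35 in null-labelled cells, 0.48 ± 0.12 higher (adjusted p = 0.0104). Ifnar2 read 1.11 and 0.998 against 0.82 and 0.61, 0.33 lower (SE 0.09, adjusted p = 0.0157). Ifnar1 lost its call without null-labelled replicate 1 (adjusted p = 0.0878) or wild-type replicate 1 (0.0747), and Ifnar2 without null-labelled replicate 2 (0.115) or wild-type replicate 1 (0.102). The other probes of Ifnar1 gave 0.11 and -0.24, and the mean of its probes 0.12 with an adjusted p of 0.482. Ifngr1 and Ifngr2 differed by -0.14 ± 0.16 and 0.25 ± 0.10, and neither passed.

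Irf1 and Irf9 were lower in the null-labelled cells. Irf1 read 3.36 and 3.28 in wild type and 2.61 and 2.53 in null-labelled cells, 0.75 lower (SE 0.13, adjusted p = 0.000923). Irf9 read 2.14 and 2.36 against 1.67 and 1.55, 0.64 lower (SE 0.12, adjusted p = 0.00166). Irf8 read -3.99 and -4.44 in wild type, where it was well above background, and -5.36 and -5.24 in the null-labelled cells, where it was not, 2.12-fold lower at these dim signals (adjusted p = 0.000377). With the normexp background correction the value for Irf8 was -0.20, with an adjusted p of 0.265.

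Nlrc5 (probe at chr8:97051105-97051164) read -3.70 and -3.65 in wild type and was dim at -5.47 and -5.46 on this probe, at least 3.21-fold lower (adjusted p = 0.000412). The other probe of Nlrc5, well above background on all 4 iPSC arrays, differed by -0.06 ± 0.25, so the gene was not dim on all its probes. The mean of its probes gave -0.92 (adjusted p = 0.00613). Stat2 was 0.27 ± 0.09 higher (adjusted p = 0.0295), a call lost without null-labelled replicate 1 (adjusted p = 0.174), wild-type replicate 1 (0.0912) or wild-type replicate 2 (0.0995). Irf3 and Irf5 differed by 0.05 ± 0.09 and -0.16 ± 0.11, with adjusted p of 0.713 and 0.253.

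The RNA sensors split. Ifih1 (probe at chr2:62435507-62435566) read -3.95 and -4.46 in wild type and was dim at -7.67 and -7.55 (adjusted p = 8.03e-05), a direction set by its entry through wild type alone. With normexp correction its change was -0.49 (adjusted p = 0.0112). Dhx58, a regulator of the other sensors, read -3.79 and -3.72 in wild type and -2.89 and -2.69 in null-labelled cells, 0.97 ± 0.15 higher (adjusted p = 0.000574). Ddx58 differed by 0.30 ± 0.12 (adjusted p = 0.0834), which passed without wild-type replicate 2 (0.48, adjusted p = 0.0144). Socs1 read -1.19 and -1.22 against -1.59 and -1.54, 0.36 lower (SE 0.09, adjusted p = 0.0110), a call lost without null-labelled replicate 1 (0.0603) or wild-type replicate 1 (0.0565). Trim21 and Trim25 differed by -0.04 ± 0.15 and 0.17 ± 0.17.

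Ubd had the widest gap of the set. At its probe (chr17:37332688-37332747) the wild-type arrays read -8.00 and -7.92, neither well above background, and the null-labelled arrays 2.82 and 2.82. The rise was at least 391-fold (adjusted p = 6.97e-14), in a direction that entry through the null-labelled group alone had set. With normexp correction it was 6.75. In mESC, on the other slide, both groups were well above background, at 0.99 ± 0.05 (SD, n = 4) in Tbx3-low and 0.41 ± 0.05 in Tbx3-high.

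The OAS members differed among themselves. Oas3 read -3.91 and -4.38 in wild type and -3.15 and -2.98 in null-labelled cells, 1.08 ± 0.15 higher (adjusted p = 0.000258). Oas1a read 4.39 and 4.46 against 3.79 and 3.86, 0.60 lower (SE 0.09, adjusted p = 0.000582). Oas2, Oasl1 and Oasl2 differed by -0.26 ± 0.11, -0.07 ± 0.13 and 0.50 ± 0.28, and none passed. Oasl2 was well above background on all 4 iPSC arrays, at -4.74 and -5.18 in wild type and -4.18 and -4.74 in null-labelled cells.

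Both double-stranded RNA effectors were lower. Eif2ak2 read -0.93 and -0.71 in wild type and -1.66 and -1.28 in null-labelled cells, 0.65 lower (SE 0.15, adjusted p = 0.00525), with an adjusted p of 0.0501 without null-labelled replicate 1. Adar read 2.44 and 2.47 against 1.62 and 1.44, 0.92 lower (SE 0.10, adjusted p = 6.55e-05). The probes of Adar disagreed, since the other (chr3:89557158-89557217) gave 0.10 ± 0.11 (adjusted p = 0.575 over all probes).

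Among the membrane factors Bst2 (probe at chr8:74058603-74058662) read 1.96 and 1.88 in wild type and 3.94 and 3.75 in null-labelled cells, 1.93 ± 0.10 higher (adjusted p = 2.95e-07). Ifitm2 was 0.44 ± 0.10 higher (adjusted p = 0.00682), a call lost without null-labelled replicate 1 (0.36, adjusted p = 0.0576). Ifitm1 and Ifitm3 differed by 0.29 ± 0.13 and 0.06 ± 0.14. Parp14 was 0.86 lower (SE 0.21, adjusted p = 0.00768) and Parp9 0.51 lower (SE 0.12, adjusted p = 0.00835), while Parp12 differed by 0.26 ± 0.19. Parp14 lost its call without null-labelled replicate 2 (-0.64, adjusted p = 0.0654) or wild-type replicate 1 (-0.73, 0.0636), and Parp9 without null-labelled replicate 2 (-0.36, 0.0693).

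Cxcl10 read -5.34 and -5.39 in wild type and -3.12 and -2.93 in null-labelled cells, 2.34 ± 0.20 higher (adjusted p = 7.86e-06). Its wild-type values lay near the lowest signals well above background on those arrays, -5.84 and -5.75. Over the alternative fits described below, the rise of Cxcl10 ran from 1.12 to 2.44. Ifi27 (probe at chr12:104678353-104678412) read -0.15 and -0.33 against -4.06 and -3.89, 3.74 lower (SE 0.34, adjusted p = 1.37e-05). Its change ran from -3.82 to -2.64 over the alternative fits. Xaf1 read -0.26 and 0.17 against -1.67 and -2.12, 1.85 lower (SE 0.16, adjusted p = 1.01e-05). Its second, dimmer probe gave -6.22 ± 0.43, a size that depends on signals near background. That probe was well above background on only 1 of 2 null-labelled arrays. Ifi35 was 0.41 ± 0.10 higher (adjusted p = 0.00863), with an adjusted p of 0.0678 without null-labelled replicate 1. Isg15, Rtp4 and Psme1 differed by -0.26 ± 0.20, -0.15 ± 0.26 and 0.31 ± 0.12, and none passed. Rsad2 was not tested, being dim on all 4 arrays.

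The third comparison set the 2 changes against each other, both taken as more minus less Tbx3 by the labels: (Tbx3-high minus Tbx3-low) minus (wild type minus null label). Cell kind, slide and kind of contrast cannot be told apart in it, and Tbx3 RNA was not lower under the null label. Of 44 members, 26 differed between the 2 comparisons in this sense, 17 with a negative and 9 with a positive value. Of all 17660 genes 33.6% did so, 14% negative and 19.7% positive. At 2-fold or more, 10 were negative and 3 positive, against 7.4% and 3.96% of all genes. Both counts include Oasl2, Rsad2, Nlrc5, Ifih1 and Ubd. Each of these had entered the mESC or the iPSC comparison through 1 group alone, which set the direction of its change there. For Irf1, Parp9, Parp14 and Ifi27 the label with more Tbx3 went with the lower level in mESC and the higher in iPSC. The differences were -2.51 ± 0.15 for Irf1, -2.16 ± 0.15 for Parp9, -2.73 ± 0.25 for Parp14 and -5.26 ± 0.42 for Ifi27, with adjusted p of 1.81e-06, 4.93e-06, 3.19e-05 and 1.05e-05. Of 42 members tested in both, 14 passed in both, and in 8 of these (Ifnar2, Irf8, Irf9, Ubd, Bst2, Ifi35, Xaf1 and Cxcl10) the label with more Tbx3 went with the same direction in both. In the other 6 (Irf1, Socs1, Oas1a, Parp9, Parp14 and Ifi27) it went with opposite directions. Another 14 passed in mESC only, 8 in iPSC only and 6 in neither, by the separate tests. The same joint counts were not made over all genes, so those of the members are a description only. For Ubd and Irf8 the direction in iPSC had been set by entry through 1 group alone.

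Among those 8, the test of the difference was not passed by Cxcl10, Xaf1, Irf8, Ifnar2 and Irf9. Cxcl10 changed by -2.47 in mESC and, as wild type minus null label, by -2.34, a difference of -0.13 ± 0.24 (adjusted p = 0.725). It passed on 2 other sets of values, at -0.76 (adjusted p = 0.00704) with normexp correction and -0.86 (0.00331) in the authors' deposited series table. Xaf1 changed by 1.79 and 1.85, a difference of -0.06 ± 0.20 (adjusted p = 0.853). With the mean of its probes the difference was -2.30 (0.000197). That mean takes in the second probe, well above background on 0 of 4 Tbx3-low, 1 of 4 Tbx3-high and 1 of 2 null-labelled arrays. Irf8 changed by 0.998 and 1.08, the latter at dim null-labelled signals, a difference of -0.09 ± 0.19 (adjusted p = 0.775), which turned to 0.57 with normexp correction (0.0170). The difference of Irf9, -0.36 (adjusted p = 0.0784), passed with normexp correction (0.0449), quantile normalization (0.0356) and the authors' deposited series table (0.0105). That of Ifnar2, 0.27 (0.0918), passed without null-labelled replicate 2 (0.0393). A p above the threshold does not show that the changes were alike.

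Of the effectors lower in Tbx3-high, Isg15, Ifitm1, Ifi35 and Parp12 differed by -1.27 ± 0.25, -0.88 ± 0.16, -0.68 ± 0.12 and -0.70 ± 0.24 between the comparisons. Trim21 differed by -1.48 ± 0.18, Socs1 by -0.75 ± 0.11, Oas1a by -0.999 ± 0.12 and Adar by -0.89 ± 0.13. On the other side Bst2 differed by 1.38 ± 0.12, Dhx58 by 1.16 ± 0.18 and Oas3 by 0.89 ± 0.18. For members dim in a group the fitted difference depends on signals near background. When dim signals were raised to the lowest one well above background on the array, the difference was 8.03 for Ubd, -4.31 for Oasl2, -1.48 for Nlrc5, -1.25 for Ifih1 and -0.93 for Rsad2, and all 5 passed. With normexp correction Rsad2 was at -0.20 and did not pass (adjusted p = 0.412), and the Nlrc5 value rests on the probe that was dim. The Adar value rests on its brighter probe. The other probe of Adar changed by 0.16 ± 0.08 in mESC and, as null label minus wild type, by 0.10 ± 0.11 in iPSC.

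Several differences sat near the threshold. Ddx58, Ifngr2 and Irf3 passed with adjusted p of 0.0442, 0.0495 and 0.0275 and missed it when the replicate number was a block (0.0682, 0.0983 and 0.0531). Isg20, Oas2 and Rtp4 missed it without that block (0.0546, 0.0643 and 0.0584) and passed with it (0.0113, 0.0454 and 0.0149). Ddx58 also lost its call without any of 10 of the 12 arrays, with adjusted p from 0.0509 to 0.204, and Ifngr2 without any of 11, from 0.0629 to 0.138. Irf3 lost it without Tbx3-low replicate 1 (0.0505), null-labelled replicate 1 (0.127) or either wild-type array (0.0502 and 0.0933). Parp12 and Eif2ak2 (0.0443 and 0.0435) lost theirs without any of 9 arrays each, up to 0.1699 and 0.200.

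**Figure D5:**
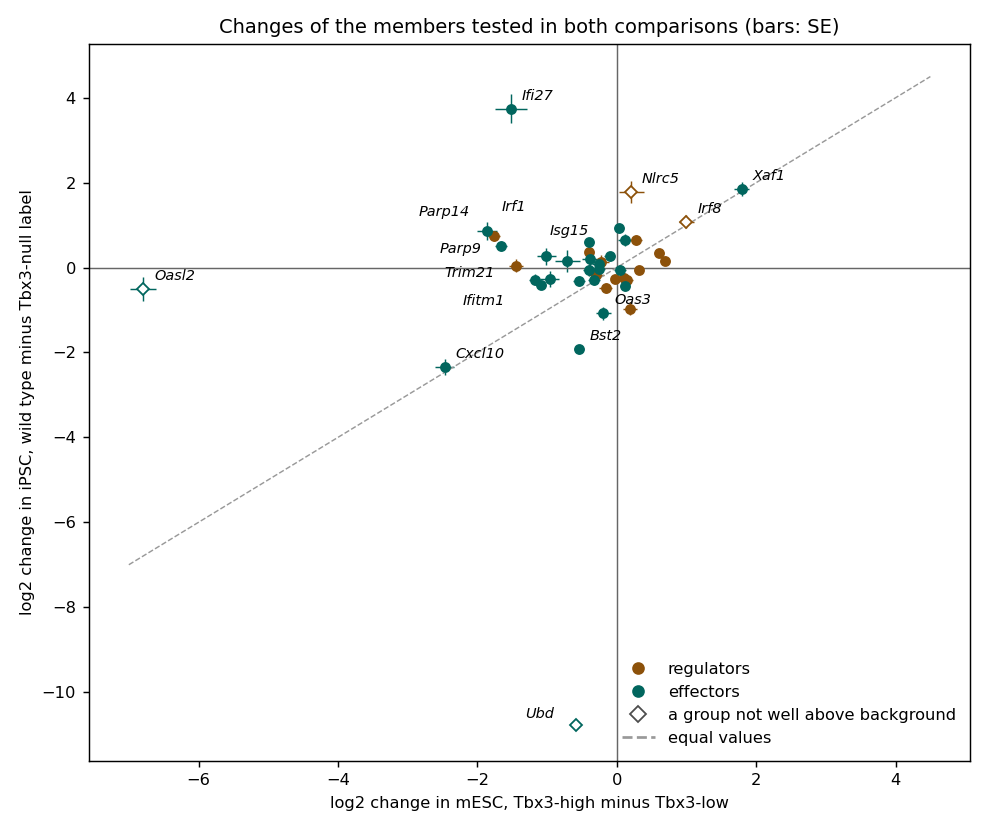
Log2 change of the 42 members tested in both comparisons, mESC (Tbx3-high minus Tbx3-low) on the horizontal and iPSC (wild type minus Tbx3-null label) on the vertical axis, with SE bars; the dashed line marks equal values and open diamonds members dim in a group. Cxcl10, Xaf1 and Irf8 lie near the line, Ifi27, Parp14, Parp9 and Irf1 on the other side of 0, and Oasl2 and Ubd far from it along 1 axis each.

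Genes of the pathway outside the members were counted from lists written with knowledge of earlier results on these arrays. Their counts stand beside 19.5% of all genes higher and 15.3% lower in Tbx3-high, and 21.8% higher and 16.6% lower in null-labelled iPSC. Of 15 interferon genes on the array, 7 were tested in mESC and none passed at an adjusted p under 0.05 in limma, and 0 had an unadjusted p under 0.05, with changes from -0.21 to 0.34. In iPSC 1 of 11 passed: Ifnk was 2.64 lower (SE 0.54, adjusted p = 0.00292), with wild-type values of -3.66 and -1.98 and 1 of 2 null-labelled arrays not well above background. Among 24 tested JAK-STAT genes, 5 were higher and 3 lower in Tbx3-high, shares near those of all genes. The largest changes were those of the feedback inhibitors Socs3, 0.78 ± 0.10 higher, and Socs2, 0.66 lower (SE 0.07), and of the corepressor Irf2bp2, 0.59 lower (SE 0.12).

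The kinases Jak1, Jak2 and Tyk2 differed by 0.21 ± 0.10, -0.17 ± 0.10 and 0.21 ± 0.08 in mESC, and none passed. For Tyk2 the adjusted p was 0.0505, and it passed without Tbx3-high replicate 1 (0.0473) or 2 (0.0301). In null-labelled iPSC 7 of 25 JAK-STAT genes were higher and 7 lower. Jak3, the kinase of common gamma chain receptors, fell by 1.21 (SE 0.15), Socs2 rose by 1.06 ± 0.10, the phosphatase Ptpn6 by 1.02 ± 0.14, and Jak2 fell by 0.67 (SE 0.14, adjusted p = 0.00313). Jak1 was 0.50 lower (SE 0.14, adjusted p = 0.0179), a call lost without null-labelled replicate 2 (0.107), wild-type replicate 1 (0.0869) or wild-type replicate 2 (0.0541).

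Among nucleic acid sensors and adaptors, 7 of 21 were higher and 1 lower in Tbx3-high mESC. The lower gene was Zbp1, a sensor of left-handed nucleic acids, at -0.11 ± 0.15 (SD, n = 4) in Tbx3-low and -2.57 ± 0.22 in Tbx3-high (adjusted p = 7.95e-08). The adaptor kinases Irak4 and Ikbke were 0.85 ± 0.20 and 0.53 ± 0.15 higher, Irak4 with 2 of 4 Tbx3-low arrays not well above background. In null-labelled iPSC 5 were higher and 7 lower: Zbp1 fell by 1.99 (SE 0.17), Sting1 by 1.68 (SE 0.11) and Cgas by 1.67 (SE 0.11), the last of these the DNA sensor that makes the ligand of Sting1. For Zbp1 the difference between the comparisons was -4.44 ± 0.21 (adjusted p = 2.96e-07).

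In the NF-kB pathway 6 of 11 genes were higher in Tbx3-high and 0 lower (0 also at an unadjusted p under 0.05 in limma), led by the inhibitor Nfkbie, 1.22 ± 0.12 higher, the kinase Ikbkb, 0.50 ± 0.06, and Relb, 0.37 ± 0.06. In null-labelled iPSC 3 were higher and 1 lower, the latter the feedback inhibitor Tnfaip3, which fell by 1.60 (SE 0.11), beside Nfkbib and Nfkbia at 0.79 ± 0.08 and 0.44 ± 0.10 higher. A further list of interferon-stimulated genes had 18 of 39 lower and 6 higher in Tbx3-high, with a median of -0.34. Of the 39, 34 were well above background in both groups, and for the rest entry through 1 group alone set the direction. Lgals9, a galectin, fell by 3.28 (SE 0.13) and Trim12a by 2.55 (SE 0.15). Csf1, a growth factor of macrophages, was dim in Tbx3-high and at least 2.76-fold lower, a direction set by its entry. In null-labelled iPSC 13 of 41 of that list were lower and 8 higher, with 35 of the 41 well above background in both groups. Slfn3 fell by 2.76 (SE 0.92, adjusted p = 0.0358), Ifi204 rose by 2.38 ± 0.64 (adjusted p = 0.0136), and Plac8 rose by 2.15 ± 0.12 (adjusted p = 4.49e-07).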

How the data were processed

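Labelled RNA was measured on 12 one-colour arrays. Per the file headers, the authors scanned them with Agilent Feature Extraction 10.7.3.1, which gave background-corrected intensity values per spot; probe positions are on mm9. The authors also deposited a table of log2 values whose scaling is unknown (correlation with log2 mean signal at least 0.9988, array medians 6.58 to 6.61), used only as an alternative.

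Each level is log2 of the processed intensity minus the 75th percentile of it over the 59305 non-control spots of the array. Spots of a probe were averaged and outlier-marked spots left out. A gene was tested where all arrays of a group compared marked its brightest probe as well above background. limma 3.58.1 (R 4.3.3) fitted 4 group means over all 12 arrays with 8 residual degrees of freedom, and p-values were adjusted over all genes tested (Benjamini-Hochberg, threshold 0.05). The fit was tested on simulated data. Other steps used Python 3.11.15, pandas 2.3.3, numpy 2.4.6 and matplotlib 3.10.9. The number of arrays limits the precision.

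Members and lists were chosen with earlier results of these data known. Named were every measured regulator, the 15 effectors with the largest changes in mESC and 10 in iPSC, all measured members of the IFIT, OAS, Mx, IFITM and PARP families, the 3 largest changes of each other list, and Jak1, Jak2 and Tyk2; a gene that this rule also names is not reported here. Alternatives changed the background correction, scaling, source, filter, probe, floor, samples and blocks; the brightest probe without a simple repeat was added after seeing the data. Deviations of same-numbered Tbx3-low and Tbx3-high arrays had correlations of 0.138, 0.2443, 0.1697 and 0.1082 over genes, all above the 0.1 set for taking the numbers as pairs. Differently numbered arrays of the same slide row reached 0.3369, 0.2494 and 0.1046, so pairs and slide row were not told apart. In iPSC the correlation was 0.031 and they were not.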

Additional observations from a re-analysis of the deposited data

Results flagged for a closer look

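Among 84 groups of 4 values checked, 3 had 1 array far from the other 3 by Dixon's criterion, and chance gives such a value in about 1 in 20 groups. Irf3 read 3.42 on Tbx3-high replicate 1, Ifitm2 5.11 on Tbx3-low replicate 4, and Bst2 3.54 on Tbx3-high replicate 2.

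For 26 members the change between Tbx3-high and Tbx3-low differed from that between wild-type and null-labelled iPSC by the limma test of the difference. Among the regulators the difference was 0.36 for Ifngr2, -2.51 for Irf1, 0.36 for Irf3, 0.53 for Irf5, -1.58 for Nlrc5, -5.19 for Ifih1, 0.45 for Ddx58, 1.16 for Dhx58, -0.75 for Socs1 and -1.48 for Trim21. In the OAS family and among the enzymes of RNA it was -0.999 for Oas1a, 0.89 for Oas3, -6.30 for Oasl2, -4.08 for Rsad2, -0.53 for Eif2ak2 and -0.89 for Adar. For the ubiquitin-like proteins it was -1.27 (Isg15) and 10.19 (Ubd), and for the membrane proteins -0.88 (Ifitm1), 0.56 (Ifitm2) and 1.38 (Bst2). It was -2.16 for Parp9, -0.70 for Parp12, -2.73 for Parp14, -0.68 for Ifi35 and -5.26 for Ifi27. The values of Nlrc5, Ifih1, Oasl2, Rsad2 and Ubd depend on signals near background. With dim signals raised to the lowest one well above background, they were -1.48, -1.25, -4.31, -0.93 and 8.03. With normexp correction Rsad2 was at -0.20 (adjusted p = 0.412) and Ifih1 at -0.69. The value of Adar rests on its brighter probe alone.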

How the results depend on the processing

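Of 29 members called in mESC, 19 kept their call under every alternative that gave a value for them (20 or 21 each), of 23 in iPSC 13 (13 or 14 each), and of 26 differences between the comparisons 18 (20 or 21 each). With the brightest probe without a simple repeat, chosen after seeing the data, Trim25 turned to 0.39 in mESC and Sp110 to 0.13 in mESC and -0.67 in iPSC. With those probes 22 members were lower and 7 higher in Tbx3-high, and 15 lower and 9 higher in null-labelled iPSC. With normexp correction the difference of Irf8 turned to 0.57. The other pathway genes higher in Tbx3-high, 24 in the reported fit, numbered 14 with normexp, 15 in the deposited table, 13 within slide row 1 and 11 within row 2, where all genes higher numbered 1817 in place of 3059. The cause was not tested, beyond the smaller number of arrays within a row. Leaving out each replicate gave 20 to 23 members lower and 5 to 6 higher in Tbx3-high, 11 to 14 lower and 5 to 10 higher in null-labelled iPSC, and 22 to 26 differences. All genes higher in null-labelled iPSC then numbered 2529 to 3397, against 3806, with 2529 without null-labelled replicate 1. With the replicate block, 23 members were lower and 6 higher in Tbx3-high; beyond the calls given with the differences it changed no other member's call in mESC. In iPSC, where the numbers did not pair the samples, the block gave 12 lower and 6 higher. Members not well above background in a group have only a bound there, and their fitted values depend on the background correction.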
